A study of Mus musculus with 16 samples.

Results

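Integrins and cadherins are the receptors through which embryonic cells hold on to matrix and to each other. The genes described here were taken by symbol from the expression tables, as every integrin alpha chain, every integrin beta chain and every cadherin named Cdh with a number. That rule gave 50 of the 24421 genes in each table, 27 integrins and 23 cadherins. The integrins comprise 9 beta chains, 4 alpha chains of the fibronectin and RGD group, 3 laminin receptor alphas, 4 collagen receptor alphas, the pair alpha4 and alpha9, and 5 leukocyte alphas. The cadherins comprise 5 type I and 13 type II classical cadherins, and 5 others that carry a Cdh symbol without being classical. The mRNA was measured by RNA sequencing in miR-302 knockout (KO) and wildtype (WT) C57BL/6 mouse embryos. At embryonic day 7.5 (E7.5) whole embryos were used, 2 KO and 2 WT libraries. At E8.5 the libraries, 4 KO and 3 WT, came from sorted Wnt1-Cre+ cells, labelled as neural crest before and after migration, and Wnt1-Cre was thus carried by KO and WT embryos alike. At E9.5 the libraries, 2 KO and 2 WT, came from sorted Sox10+ cells, labelled as neural crest after migration. The labels do not describe the knockout allele, the reporter read in the sorter or how many embryos went into a library, and nothing in them says that libraries of a group came from separate litters, so a p-value measures the spread between these libraries, part of which may be technical.

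Classical cadherins join neighbouring cells by binding the same cadherin on the next cell, and their tails hold on to actin through beta-, alpha- and p120-catenin. Epithelia such as the epiblast use Cdh1 (E-cadherin), and the exchange of Cdh1 for Cdh2 (N-cadherin) and for type II cadherins such as Cdh6 and Cdh11 is a textbook feature of gastrulation and of neural crest cells leaving the neural tube. An integrin is a pair of 1 alpha and 1 beta chain, and the alpha chain sets much of the ligand choice: alpha5 and alphav bind fibronectin and other RGD proteins, alpha3, alpha6 and alpha7 bind laminins, and alpha4 and alpha9 bind fibronectin variants, VCAM1, tenascin or osteopontin.

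The miR-302 cluster lies in an intron on chromosome 3. The miR-302 miRNAs it encodes share a seed, the stretch (bases 2 to 8) that pairs with target mRNAs. Mature sequences from RefSeq (GRCm38.p6, plus strand) are shown because the labels name a knockout of miR-302, with bases 2 to 8 in capitals. The RefSeq entry of miR-302c-3p starts 1 base later than the other two, so its capitals are shifted by 1 base within the same stretch.
miR-302b-3p (chr3:127545275-127545297): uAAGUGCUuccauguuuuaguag
miR-302c-3p (chr3:127545406-127545427): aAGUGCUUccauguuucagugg
miR-302d-3p (chr3:127545665-127545687): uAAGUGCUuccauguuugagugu

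The longest annotated 3′UTR of each of the 50 genes was searched on its sense strand for 3 seed matches of miR-302b, the 8-base AGCACTTA and the 7-base AGCACTT and GCACTTA, which both lie within the 8-base match. An 8-base match was present in 2 of the 50 genes (4.0%), against 627 of 20125 genes with a 3′UTR (3.12%). Any of the 3 was present in 8 of the 50 genes (16.0%), against 3804 of 20125 (18.9%). The 8 were Itgb3, Cdh3, Itgb8, Itgav, Itgb4, Cdh6, Cdh7 and Cdh20, and Itgb8 had 3 matches. The matches in the genes whose levels are described at length are printed with 11 bases on either side (GRCm38, GENCODE M21), the match in capitals. A match of letters does not show that the miRNA acts there.
Itgb3 (chr11:104669701-104669730, plus strand, base 2567 of a 3331-base 3′UTR): gcatctgatgtAGCACTTAgtttttatcca
Cdh3 (chr8:106556704-106556733, plus strand, base 1265 of a 1847-base 3′UTR): agaaagccagcAGCACTTAgctttgatgac
Cdh6 (chr15:13029700-13029728, minus strand, base 4483 of a 5499-base 3′UTR): acaagactaggGCACTTAgccgaggagac
Itgav (chr2:83803746-83803774, plus strand, base 422 of a 3581-base 3′UTR): agtttgcacagGCACTTAgaacaggtaca

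The libraries held 4912827 to 14861728 reads assigned to genes, and 3 reads, the upper limit that a count of 0 allows, corresponded to 0.202 to 0.611 RPM (reads per 1000000 assigned reads), a limit that covers counting error only. Reads on the precursors Mir302a to Mir302d summed to 0 in KO libraries at each stage, against 39 in E7.5 WT libraries, 1 in E8.5 WT libraries and 1 in E9.5 WT libraries, so after E7.5 the counts were too low to check the labels. Libraries differed in how levels depended on transcript length: the Spearman correlation across genes between a library's deviation from its stage mean and transcript length ran from -0.580 to 0.659. At E9.5 it was negative in both KO libraries (-0.478 and -0.580) and positive in both WT libraries (0.601 and 0.659), so length dependence and genotype cannot be told apart there. The code numbers in the labels separate the genotypes in the same way at E9.5, 171 for both KO libraries and 209 for both WT libraries. The integrins and cadherins tested had longer transcripts than other genes, with medians of 4565 bases at E9.5 and 3349 bases over all tested genes. Markers of the labelled tissue were present: the 7 neural crest genes summed to 201 to 435 RPM in E8.5 KO libraries and 213 to 284 RPM in E8.5 WT libraries, to 106 to 184 RPM in E9.5 KO libraries and 357 to 365 RPM in E9.5 WT libraries, and to at most 29.0 RPM at E7.5. Red blood cell transcripts stood out in some sorted KO libraries: 6 erythroid genes summed to 1642, 2501, 1.48 and 97.6 RPM in E8.5 KO1 to KO4 and to 20862 and 17.9 RPM in E9.5 KO1 and KO2, against 0.324 to 0.405 RPM in E8.5 WT libraries and 0.274 and 1.61 RPM in E9.5 WT libraries.

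Cadherin levels were first compared between genes, in RPM per kilobase of exon. The stages are different tissues and sorts, and they are described side by side without a test. In E7.5 embryos Cdh1 was the leading cadherin, with 47.1 and 21.6 RPM per kb in KO libraries, against 57.2 and 27.4 in WT libraries. It held 50.3% ± 21.9 of the summed cadherin level in KO embryos and 67.4% ± 0.11 in WT embryos (SD, n = 2 each), and the KO share came from 2 unlike libraries, 65.8% in KO1 and 34.8% in KO2. Cdh5 (VE-cadherin of endothelium), Cdh2 and Cdh3 (P-cadherin) followed in KO embryos at 9.15, 7.87 and 6.59 RPM per kb, with spreads that overlapped. In WT embryos Cdh3, Cdh5 and Cdh2 lay at 5.03, 4.003 and 3.75 RPM per kb, again within each other's spread. At E8.5 Cdh2 led in every library. Its level was 13.6, 13.1, 24.2 and 10.3 RPM per kb in KO1 to KO4, against 7.89, 10.7 and 24.3 in WT1_5s, WT2 and WT3, and its share of the cadherin level was 38.8% ± 2.5 in KO cells (n = 4) and 41.8% ± 2.14 in WT cells (n = 3). Next came Cdh6 with 6.21 ± 1.75 RPM per kb in KO cells and 3.22 ± 1.18 in WT cells, Cdh11 (OB-cadherin) with 5.29 ± 0.928 in KO cells and 4.22 ± 2.25 in WT cells, and Cdh1 with 5.08 ± 5.54 in KO cells and 4.18 ± 3.58 in WT cells. These 3 did not separate from each other beyond their spread.

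In Sox10+ cells at E9.5 the order was different again. Cdh11 led, with 3.95 and 2.14 RPM per kb in KO libraries, against 26.8 and 35.5 in WT libraries. It held 39.1% ± 11.8 of the cadherin level in KO cells and 47.0% ± 4.03 in WT cells. Cdh2 had 1.54 ± 0.171 RPM per kb in KO cells and 14.7 ± 1.28 in WT cells, and Cdh6 had 0.859 ± 0.644 in KO cells and 14.5 ± 0.250 in WT cells. In WT cells Cdh2 and Cdh6 were thus level per kilobase of exon. By longest transcript Cdh2 would stand higher, with 8066 exon bases but 4843 in that transcript, against 9024 and 8167 for Cdh6. Cdh19, a type II cadherin known from Schwann cell precursors, had no read in the 4 libraries at E7.5, 0.773 ± 0.367 RPM per kb in KO cells and 0.525 ± 0.173 in WT cells at E8.5, and 0.350 ± 0.120 in KO cells and 2.11 ± 0.590 in WT cells at E9.5. As a class, type II cadherins held 23.3% of the cadherin level in KO embryos and 15.4% in WT embryos at E7.5, 38.3% in KO cells and 32.0% in WT cells at E8.5, and 64.4% in KO cells and 75.2% in WT cells at E9.5. The KO and WT shares overlapped at the earlier stages. At E9.5 they did not overlap, at 63.4% and 65.4% in KO libraries and 74.4% and 76.1% in WT libraries.

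**Figure D1:**
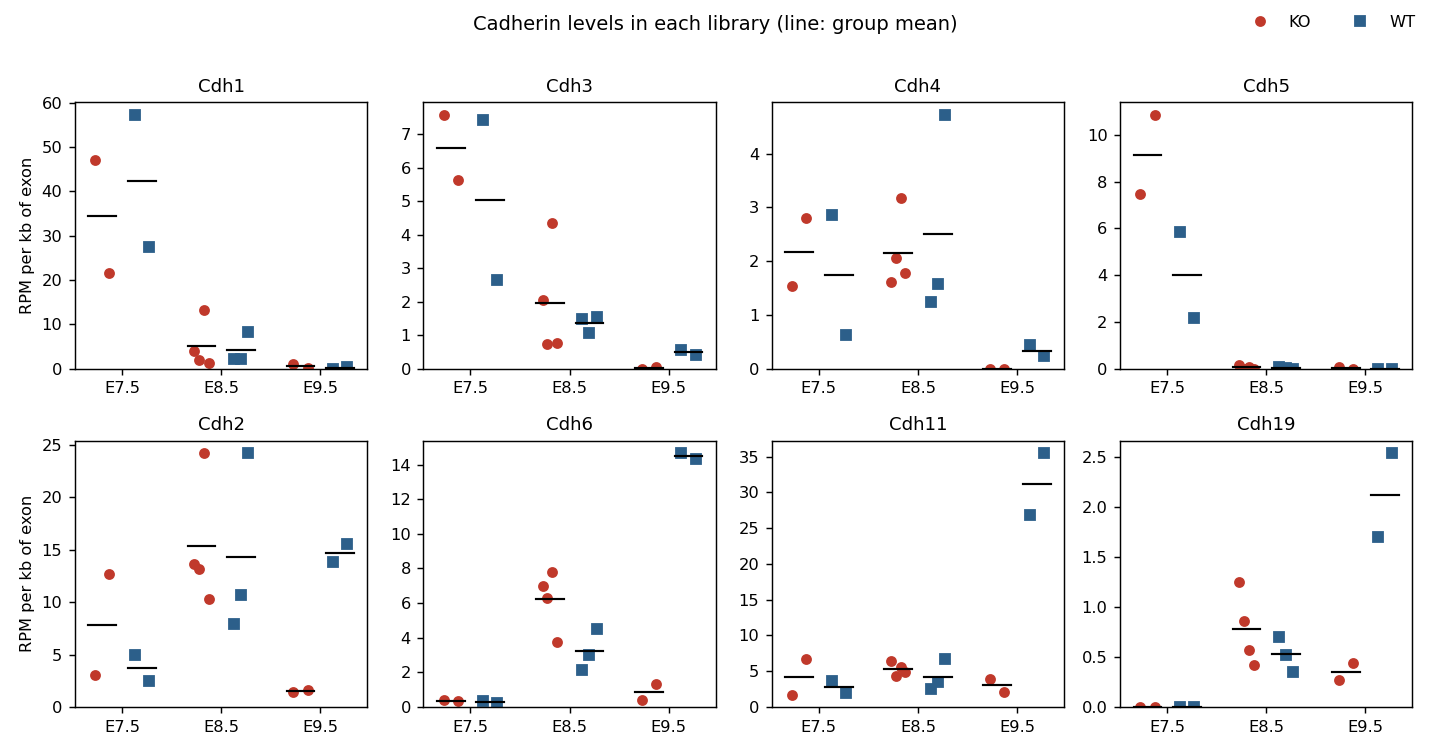
Level of 8 cadherins in each library, in RPM per kilobase of exon on linear axes that start at 0, by stage, with KO libraries as red circles left of WT libraries as blue squares and a line at each group mean. Cdh1, Cdh3 and Cdh5 were highest at E7.5, Cdh2 was present at each stage, and Cdh6, Cdh11 and Cdh19 were highest in E9.5 WT libraries.

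The exchange of Cdh1 for Cdh2 was followed as the log2 ratio of Cdh2 to Cdh1 within each library, which does not depend on how a library is scaled. At E7.5 the ratio was -3.94 in KO1 and -0.77 in KO2, against -3.52 in WT1 and -3.45 in WT2. All 4 libraries held more Cdh1 than Cdh2, and KO2 stood apart with 900 Cdh2 reads to 870 Cdh1 reads. The KO minus WT difference was 1.13 (exact permutation test over libraries, two-sided, p = 1, with 0.333 the smallest p that 2 against 2 allows), and without KO2 it was -0.45. At E8.5 the ratio was 1.78, 2.73, 0.88 and 3.12 in KO1 to KO4, against 1.90, 2.35 and 1.55 in WT1_5s, WT2 and WT3. Every Wnt1-Cre+ library thus held more Cdh2 than Cdh1, and the WT values lay inside the KO range. The difference was 0.20 (exact permutation test over 35 arrangements, two-sided, p = 0.771, smallest possible 0.0286), and without KO4 it was -0.13 and without KO2 -0.01. At E9.5 the ratio was 0.59 in KO1 and 5.03 in KO2, against at least 7.26 in WT1, which had no Cdh1 read, and 5.66 in WT2. KO1 was the low one, with 53 Cdh1 reads, while KO2 had 2 and WT2 had 21. Because 1 value is a bound and the KO2 value rests on 2 reads, no difference was computed. The 6 epithelial markers summed to 103 RPM in KO1 and 10.2 RPM in KO2, against 8.63 and 11.1 RPM in WT libraries, with none at 0 in any library. Krt8, Krt18, Epcam and Cldn7 were highest in KO1, while Cldn6 was highest in WT2 and Esrp1 in KO2. The part of epithelial cells in the ratio was not tested.

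**Figure D2:**
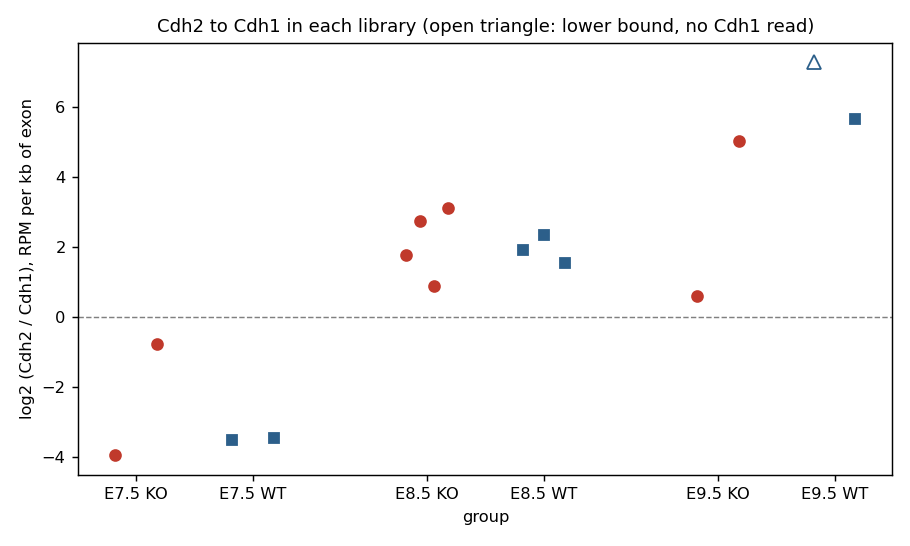
Log2 ratio of Cdh2 to Cdh1 (both in RPM per kilobase of exon) in each of the 15 libraries, with KO libraries as circles left of WT libraries as squares. The ratio was below 0 in all E7.5 libraries and above 0 in all E8.5 and E9.5 libraries, and the open triangle marks the lower bound of 7.26 in the E9.5 WT library without a Cdh1 read.

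Among integrin beta chains, Itgb1 (partner of most alpha chains) led in 14 of the 15 libraries and Itgb5 (partner of alphav) came second. Itgb1 held 61.9% ± 2.37 of the beta level in KO embryos and 74.6% ± 10.6 in WT embryos at E7.5, 80.3% ± 2.27 in KO cells and 82.3% ± 0.267 in WT cells at E8.5, and 57.4% ± 18.6 in KO cells and 67.1% ± 2.53 in WT cells at E9.5. The exception was E9.5 KO1, where Itgb5 held 52.2% and Itgb1 44.3%. Beta chains other than these 2 were rare outside E7.5: Itgb3, which pairs with alphav and with platelet alphaIIb, held 3.78% ± 0.0289 in KO embryos and 1.77% ± 0.429 in WT embryos at E7.5, and at most 0.747% in any library after that.

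The choice of alpha chain differed more between stages. Levels here are per kilobase of exon, and the order of alpha chains depends on that length. Itga6 has 9025 bases of exon and a longest transcript of 4310 bases, against 4933 and 4415 bases for Itga5. By longest transcript Itga6 would stand higher against Itga5 than is given here. At E7.5 Itga5 (fibronectin receptor) led with 10.8 and 10.003 RPM per kb in KO libraries, against 17.3 and 5.91 in WT libraries, which was 38.7% ± 5.43 of the alpha level in KO embryos and 41.9% ± 3.85 in WT embryos. Itga6 (laminin receptor) followed with 22.0% in KO embryos and 19.8% in WT embryos, and Itga7 (laminin receptor of muscle) with 11.98% in KO embryos and 11.5% in WT embryos. In E8.5 KO cells Itga6 and Itga5 shared the lead, with 27.6% ± 4.39 and 26.8% ± 5.68, and Itga3 (laminin receptor) had 13.3% ± 2.82. In E8.5 WT cells Itga5 had the largest mean share, 30.7% ± 1.13. Itga6 had 22.8% ± 8.85 there (16.5% to 32.9%) and Itga3 17.6% ± 7.98 (8.69% to 24.1%), with ranges that overlapped. Itga7 was low at E8.5, at 0.389% in KO cells and 0.0232% in WT cells. In E9.5 WT cells Itga9 led, with 9.65 and 12.8 RPM per kb or 34.4% ± 0.731 of the alpha level. It was followed by Itga5 at 21.8% ± 0.362, Itga6 at 16.2% ± 1.06 and Itga8 (nephronectin and fibronectin receptor) at 16.0% ± 0.0911. The 2 E9.5 KO libraries differed from each other: Itga9 held 43.2% in KO1 and 8.26% in KO2, and Itga6 held 19.7% in KO1 and 40.7% in KO2. Itga8 held 5.92% in KO1 and had no read in KO2. The pair alpha4 and alpha9 together held 4.2% in KO embryos and 3.43% in WT embryos at E7.5, 15.6% in KO cells and 12.3% in WT cells at E8.5, and 29.5% in KO cells and 37.2% in WT cells at E9.5, where the KO values were 46.6% in KO1 and 12.3% in KO2. Leukocyte alphas did not reach the level required for testing at any stage, and nor did the collagen receptor alphas apart from Itga1 at E7.5.

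**Figure D3:**
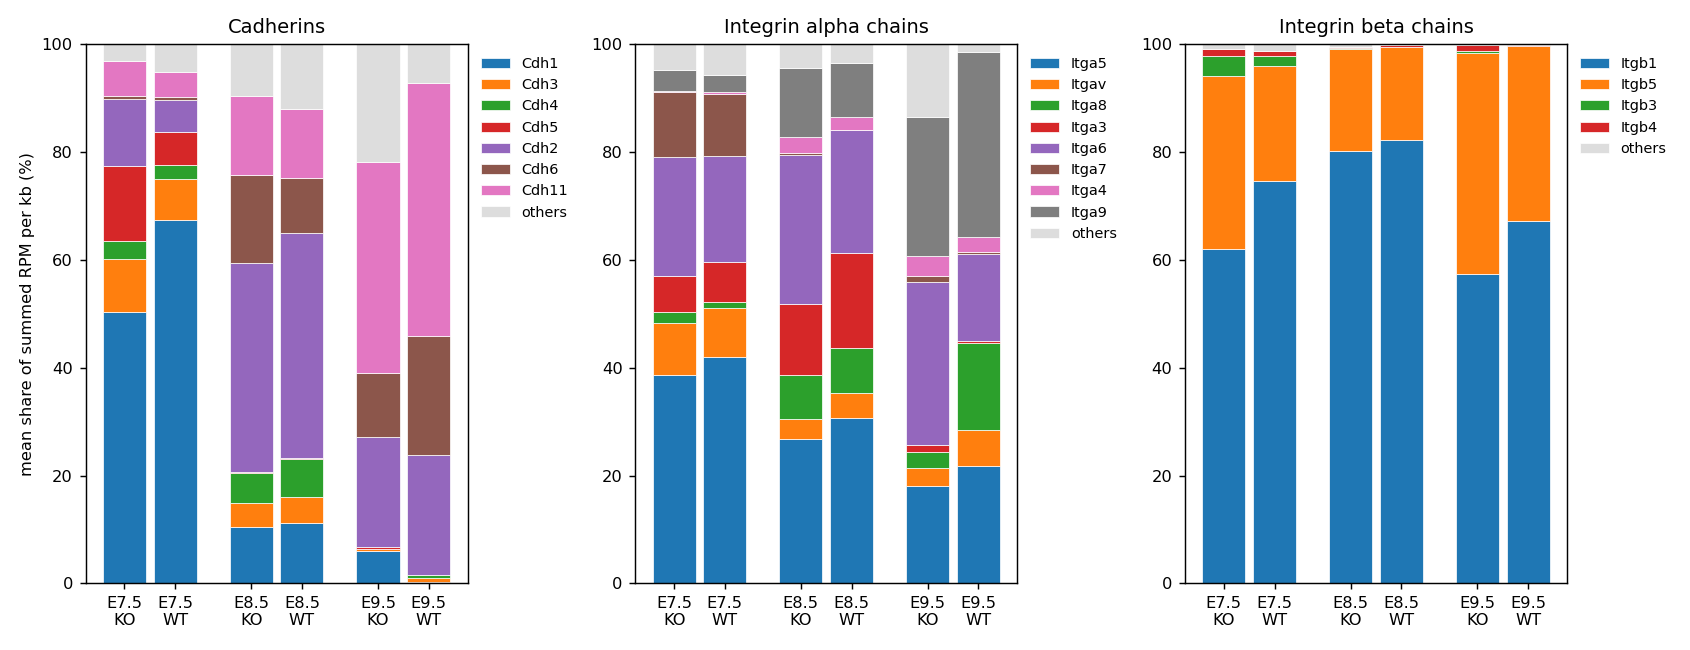
Mean share of each gene in the summed level (RPM per kilobase of exon, in %) of all cadherins, of all integrin alpha chains and of all integrin beta chains, in 6 bars that give KO left of WT for each stage from E7.5 to E9.5. The leading cadherin was Cdh1, Cdh2 and Cdh11 in order of stage, in both genotypes, while Itgb1 had the largest mean share of the beta chains in all 6 groups.

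**Figure D4:**
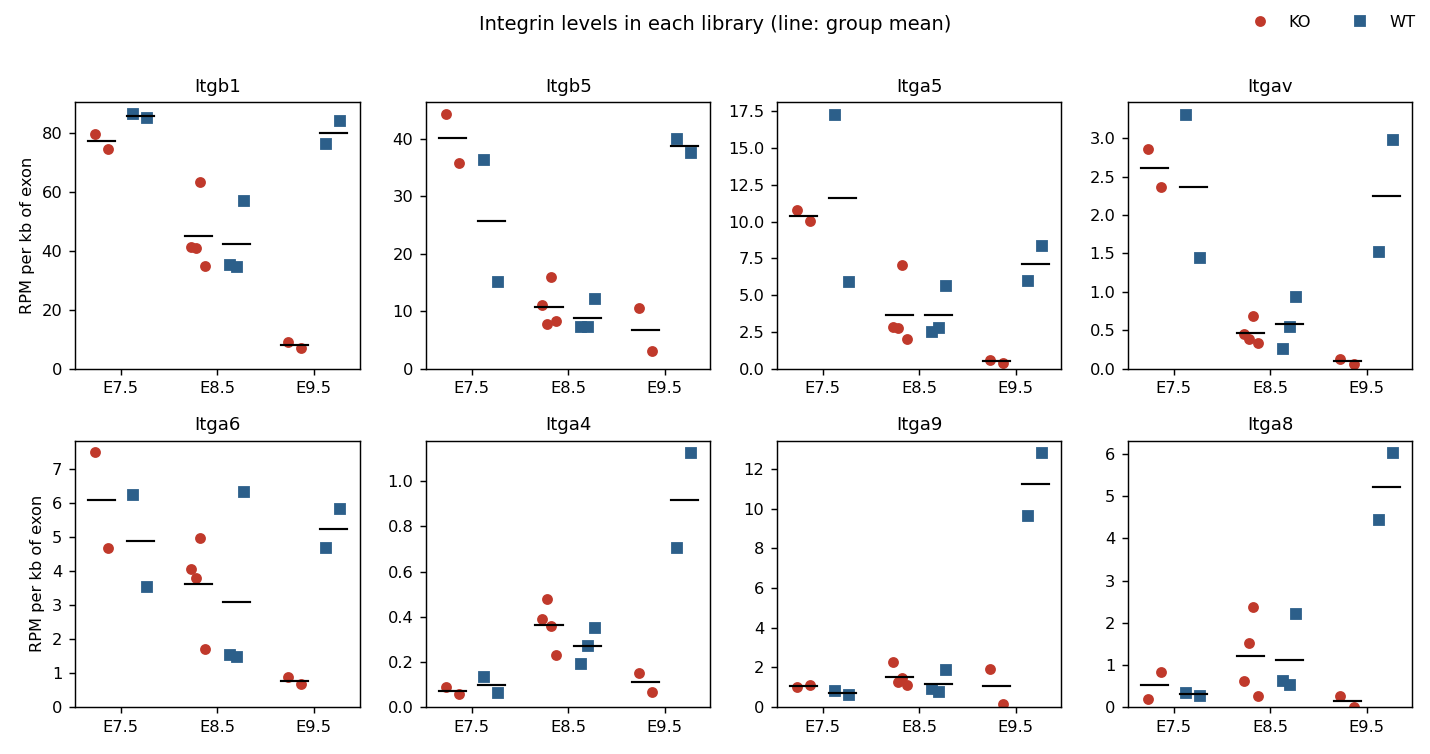
Level of 8 integrin chains in each library, in RPM per kilobase of exon on linear axes that start at 0, by stage, with KO libraries as red circles left of WT libraries as blue squares and a line at each group mean. Itga4, Itga8 and Itga9 had their highest values in E9.5 WT libraries, and at E9.5 all 8 were lower in both KO libraries than in both WT libraries.

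For KO against WT within a stage, the values used are the authors' normalised read counts, that is, reads divided by 1 factor per library. Genes averaging at least 10 were tested on the scale log2(value + 1) with limma, and p-values were adjusted by Benjamini-Hochberg over all genes of the stage. At E7.5, 24 of the 50 genes were tested and none passed an adjusted p of 0.05, nor did any of all 12492 genes (0%). With edgeR and DESeq2 on the recovered reads the count was also 0 of 24. At an unadjusted p below 0.05 there were 2 of 24, Itgb3 and Cdh5, against 3.08% of all genes. For 7 of the 24 the groups were apart, 4 with KO higher and 3 with KO lower, against 28.7% of all genes.

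Itgb3, whose 3′UTR holds the 8-base match printed above, had 203 and 184 normalised counts in E7.5 KO libraries, against 102 and 66.6 in WT libraries. Both KO libraries were above both WT libraries, and the log2 fold change was 1.22 (SE 0.36, adjusted p = 1.0 with limma). Cdh5 had 214 and 322 normalised counts in KO libraries, against 158 and 67.8 in WT libraries, again without overlap, with a log2 fold change of 1.33 (SE 0.46, adjusted p = 1.0 with limma). Markers of other cell types also differed between these embryos. The 6 trophoblast genes summed to 4203 and 7163 RPM in KO libraries, against 1754 and 941 RPM in WT libraries. Prl3d1 made up most of that sum, with 3550 and 6278 RPM in KO libraries, against 1234 and 591 RPM in WT libraries. Plac1 was higher in both KO libraries too, while Hand1, Elf5, Tfap2c and Ascl2 overlapped between genotypes. The 5 uterine genes summed to 17.1 and 17.6 RPM in KO libraries, against 148 and 2317 RPM in WT libraries. The 7 endothelial genes summed to 119 and 154 RPM in KO libraries and to 207 and 63.0 RPM in WT libraries. Among them Pecam1 was higher in both KO libraries (57.6 and 46.4 RPM, against 40.6 and 6.78 RPM in WT libraries). Tie1, Emcn, Cldn5 and Tek were highest in WT1, at 11.5, 28.9, 14.4 and 6.32 RPM, against at most 1.82 RPM in any other E7.5 library. Kdr and Egfl7 overlapped between genotypes. The 5 megakaryocyte genes summed to at most 7.33 RPM in KO libraries and 11.4 RPM in WT libraries. The part of these cells in the Itgb3 and Cdh5 values was not tested, and in whole embryos fewer cells of a type and less RNA per cell cannot be told apart. Of the 5 tested genes with a seed match (Itgb3, Cdh3, Cdh6, Itgb4 and Itgav), 5 had a log2 fold change above 0, as had 11 of the 19 without one. The medians were 0.29 with a match and 0.13 without. Without WT2 the log2 fold changes of Cdh3 and Itgav were -0.08 and -0.24. Over all tested genes, 1276 of 2608 with a match and 4703 of 9453 without were above 0, with medians of -0.01 and 0.00.

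Among the remaining E7.5 genes, some log2 fold changes turned sign when 1 library was left out. Cdh2 had 169.8 normalised counts in KO1 and 721 in KO2, against 260.0 and 149.5 in WT libraries, so that KO2 was the only library that stood apart. The log2 fold change of 0.83 (SE 0.64, adjusted p = 1.0 with limma) became -0.21 without KO2. Cdh11 showed the same library, with 98.8 in KO1 and 419.9 in KO2, against 211 and 132 in WT libraries, and its log2 fold change of 0.29 became -0.75 without KO2 and -0.05 without WT2. Cdh1 was 1474 in KO1 and 697 in KO2, against 1689.5 and 929.7 in WT libraries, with overlapping groups and a log2 fold change of -0.31 (SE 0.44), which became 0.23 without KO2 and 0.12 without WT1. Cdh3 (227 and 174 in KO libraries, 210.1 and 85.4 in WT libraries) overlapped too, and its 0.56 became -0.08 without WT2. Itgb5 had 1077 and 901 normalised counts in KO libraries, against 835 and 396 in WT libraries, and Itga9 had 51.5 and 60.1 in KO libraries, against 38.7 and 35.2 in WT libraries. Both lay higher in each KO library than in each WT library, with log2 fold changes of 0.78 (SE 0.39) and 0.58 (SE 0.43), and neither passed the test. Itgb1 was close in all libraries, with 2225 and 2154 in KO libraries, against 2279.9 and 2574 in WT libraries and a log2 fold change of -0.15 (SE 0.28). Itga5 (363 and 349 in KO libraries, 549.6 and 216 in WT libraries), Itga6 (462 and 298 in KO libraries, 363 and 236 in WT libraries) and Itgav (210.1 and 179 in KO libraries, 229 and 114 in WT libraries) overlapped between genotypes, with log2 fold changes of 0.05, 0.34 and 0.26. Without WT2 those of Itga5 and Itgav were -0.63 and -0.24. Cdh10, a type II cadherin of neural tissue, had 16.7 and 10.4 in KO libraries, against 19.7 and 35.2 in WT libraries (log2 fold change -0.94, SE 0.64). Cdh6 was low, between 16.3 and 25.0 in all 4 libraries, and Itga4 was too low to test, with 8.35 and 5.61 in KO libraries and 11.9 and 6.28 in WT libraries. Over all 24 genes tested, 16 had a log2 fold change above 0 and 8 below, with a median of 0.27, against -0.01 over all genes. That median was 0.07 without KO1, 0.72 without WT1 and -0.16 without WT2.

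In Wnt1-Cre+ cells at E8.5, 23 of the 50 genes were tested. None passed the adjusted threshold with limma, edgeR or DESeq2, against 0% of all 12257 genes with limma, and 1 of 23, Cdh6, had an unadjusted p below 0.05, against 6.05% of all genes. Cdh6 was also the only one of the 23 whose KO and WT libraries did not overlap, against 6.54% of all genes. Cdh6 marks premigratory crest in chick and mouse and has a 7-base seed match in its 3′UTR. It had 646, 597, 573 and 376 normalised counts in KO1 to KO4, against 237, 331 and 366 in WT1_5s, WT2 and WT3. The lowest KO library, KO4, was just above the highest WT library, WT3. The log2 fold change was 0.81 (SE 0.25, adjusted p = 0.807 with limma), and DESeq2 gave an adjusted p of 0.277. Without KO1 and KO2, the libraries with most red blood cell transcripts, the log2 fold change was 0.60 (adjusted p = 1.0 with limma). The 7 neural crest markers overlapped between genotypes at E8.5, and their part in the Cdh6 values was not tested.

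The leading adhesion genes of E8.5 cells overlapped between genotypes. Cdh2 had 1126, 1111, 1589 and 922 normalised counts in KO libraries, against 776, 1047 and 1771 in WT libraries, with a log2 fold change of 0.04 (SE 0.30) that was -0.23 without WT1_5s, -0.11 without KO3 and -0.01 without WT2. Its highest values were in KO3 and WT3, the libraries with the strongest positive dependence on transcript length (0.476 and 0.498). Cdh1 was 186, 94.7, 491 and 60.3 in KO libraries, against 118, 117 and 344 in WT libraries, again highest in KO3 and WT3, and its log2 fold change of -0.15 (SE 0.65) was 0.07 without KO2, 0.29 without KO4 and 0.37 without WT3. In KO1 to KO4 the 6 epithelial markers summed to 529, 335, 974 and 305 RPM. In WT1_5s, WT2 and WT3 they summed to 646, 475 and 518 RPM. The 4 neural tube markers summed to 132 to 182 RPM in KO libraries and 114 to 149 RPM in WT libraries. How far such cells enter the Cdh1 and Cdh2 values was not tested. Itgb1 varied little, with 1736, 1746, 2101 and 1580.0 in KO libraries, against 1759, 1718 and 2099.9 in WT libraries (log2 fold change -0.06, SE 0.19, and 0.04 without WT3). Itga6 had 375, 359, 364 and 169 in KO libraries, against 167, 159.7 and 515 in WT libraries, so that KO4 sat with the 2 lower WT libraries. Itga5 had 143, 143, 283 and 110.1 in KO libraries, against 150.4, 166 and 251 in WT libraries, and Itga4 had 55.6, 69.7, 40.9 and 35.9 in KO libraries, against 32.5, 45.5 and 44.0 in WT libraries. Their log2 fold changes were -0.21 (SE 0.34) and 0.28 (SE 0.34), and that of Itga5 was 0.01 without WT3. Itgb8, the partner of alphav with 3 seed matches, had 33.7, 12.5, 16.8 and 11.6 in KO libraries, against 6.77, 9.83 and 13.7 in WT libraries (log2 fold change 0.75, adjusted p = 0.857 with limma). Cdh3 had 91.7, 33.3, 155 and 37.1 in KO libraries, against 78.6, 56.5 and 61.6 in WT libraries, with the WT values inside the KO range and a log2 fold change of 0.00 (SE 0.51). Cdh11 (log2 fold change 0.28), Itga9 (0.28), Itgav (-0.32) and Cdh24 (-0.67) overlapped as well. The 5 tested genes with a seed match had 2 log2 fold changes above 0 and 3 below, with Cdh6 the highest, and over all tested genes the medians were 0.05 for 2569 genes with a match and -0.04 for 9156 without. Of the 23 genes, 11 had a log2 fold change above 0 and 12 below, with a median of 0.00, against -0.03 over all genes; on the RPM scale, which shifts KO against WT by 0.15, 15 were above 0 and 8 below.

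Sox10+ cells at E9.5 gave a different picture. Of 17 genes tested, 10 fell in KO cells and none rose at an adjusted p below 0.05, where 23% of all 12000 genes fell and 24.5% rose. The 10 were the beta chains Itgb1 and Itgb5, the alpha chains Itga4, Itga5, Itga6, Itga8 and Itgav, and the cadherins Cdh2, Cdh6 and Cdh11. KO values lay below WT values without overlap for 13 of the 17, against 41.7% of all genes, and above them for none, against 38.6%. The median log2 fold change was -2.20, against -0.14 over all genes. On the RPM scale, on which KO against WT shifts by -0.89 and the calls over all genes number 1622 higher and 5081 lower in place of 2944 higher and 2756 lower, the median was -3.07 with 12 genes called lower, against 42.3% of all genes.

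Itgb1, the shared chain of most integrins in these cells, had 476 and 425 normalised counts in KO libraries, against 2304 and 2575 in WT libraries. Both KO libraries were at similar, low values, a 5.40-fold fall (log2 fold change -2.43, SE 0.18, adjusted p = 0.00084 with limma). Itgb5 had 489 in KO1 and 155 in KO2, against 1052 and 1003 in WT libraries, lower in both KO libraries but unevenly so (log2 fold change -1.90, SE 0.54, adjusted p = 0.0363 with limma), and without KO2 its log2 fold change was -1.07. Itgb5 missed the threshold with edgeR (adjusted p = 0.0550) and with limma when no minimum level was set (adjusted p = 0.0936). Among the RGD receptor alphas, all 3 tested genes fell. Itga5 had 38.0 and 27.2 in KO libraries, against 217 and 307 in WT libraries (log2 fold change -2.97, SE 0.42, adjusted p = 0.00475 with limma). Itgav had 17.9 and 10.2 in KO libraries, against 120.5 and 239.7 in WT libraries (-3.55, SE 0.60, adjusted p = 0.00784 with limma), and Itga8 had 25.3 and 0 in KO libraries, against 242 and 333 in WT libraries (-5.79, SE 1.54, adjusted p = 0.0296 with limma). The Itga8 estimate rests on KO2, which had no read: without KO2 it was -3.43. Itga8 missed the threshold with a pseudocount of 0.1 (adjusted p = 0.0705 with limma) and with no minimum level (adjusted p = 0.0838 with limma). The laminin receptor Itga6 had 103 and 88.4 in KO libraries, against 312 and 394 in WT libraries, with no overlap (-1.86, SE 0.30, adjusted p = 0.00692 with limma). Itga4 had 27.4 and 13.6 in KO libraries, against 72.9 and 118 in WT libraries (-2.20, SE 0.61, adjusted p = 0.0329 with limma), and missed the threshold with no minimum level (adjusted p = 0.0645 with limma). Itga9, the leading alpha chain of WT cells, had 193 in KO1 and 15.3 in KO2, against 549 and 738 in WT libraries. Both KO libraries were below WT but far from each other, and the log2 fold change of -3.50 (SE 1.13) did not pass (adjusted p = 0.0520 with limma). Itga9 passed with DESeq2 (adjusted p = 0.00423) and on the RPM scale (adjusted p = 0.0297 with limma). It missed with edgeR (adjusted p = 0.0828) and with the trend on length and GC removed, as described below (adjusted p = 0.184 with limma).

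Cadherins of mesenchymal crest fell alongside. Cdh2 had 149 and 196 normalised counts in KO libraries, against 822 and 944 in WT libraries (log2 fold change -2.36, SE 0.25, adjusted p = 0.00222 with limma). Cdh11 had 458 and 279 in KO libraries, against 1765 and 2373 in WT libraries (-2.51, SE 0.31, adjusted p = 0.00325 with limma). Cdh6, which lay higher in KO cells at E8.5, had 47.5 in KO1 and 173 in KO2, against 978 and 968 in WT libraries (-3.41, SE 0.61, adjusted p = 0.00935 with limma), and was -2.48 without KO1 and -4.33 without KO2. Cdh19 had 14.8 and 27.2 in KO libraries, against 53.7 and 81.2 in WT libraries, without overlap, but missed the threshold (-1.67, adjusted p = 0.0700 with limma). Cdh4 (R-cadherin) and Cdh3 were too low to test: Cdh4 had 0 reads in both KO libraries and 23 and 25 in WT libraries, and Cdh3 had 0 and 2 reads in KO libraries and 18 and 26 in WT libraries. The epithelial Cdh1 was highest in KO1, with 55.9 in KO1 and 3.40 in KO2, against 0 and 10.6 in WT libraries (log2 fold change 2.22, SE 1.83, adjusted p = 0.348 with limma). Itgb4, the laminin receptor chain of hemidesmosomes, had 44.3 in KO1 and 0 in KO2, against 5.06 and 3.53 in WT libraries, and Cdh13 had 32.7 in KO1 and 0 in KO2, against 6.08 and 3.53 in WT libraries, so that in both genes KO1 was the high library. Of genes with a seed match, 3 were tested at E9.5, Cdh6, Itgav and Itgb4, and over all tested genes the medians were -0.81 for 2518 genes with a match and 0.01 for 8969 without. At this stage the log2 fold change followed transcript length across genes (Spearman correlation -0.643). These medians were not adjusted for length, and its part in their difference was not tested.

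How far these falls are separate from the length dependence of the E9.5 libraries cannot be told from groups of 2. Across 11919 genes the Spearman correlation of the KO over WT log2 fold change with transcript length was -0.643, where genes are not independent replicates. When a trend on length and GC content was taken out of each library, a step added after the data were seen, 4 of the 17 genes remained lower in KO cells, against 10.7% of all genes: Itgb1 (log2 fold change -1.71, adjusted p = 0.00377 with limma), Cdh11 (-1.08, adjusted p = 0.0137), Itga5 (-1.98, adjusted p = 0.0182) and Itgav (-1.97, adjusted p = 0.0398). The median of the 17 was then -1.16. Cdh2 (-1.16), Itga6 (-0.90) and Itgb5 (-1.57) missed the threshold with adjusted limma p-values of 0.0538, 0.0563 and 0.0614. Itga8 (-4.33) and Cdh6 (-1.78) missed it with adjusted limma p-values of 0.0821 and 0.135. Itga4 moved most, to -0.56 (adjusted p = 0.438 with limma). With WT1 or with WT2 left out, 4 of the 10 calls were kept, Itgb1, Cdh2, Cdh11 and Cdh6, and the sign of all 10 was the same. Those fits called 5.05% and 4% of all genes lower. With KO1 left out all 10 were kept, among 13 lower calls and 1 higher call, and with KO2 left out all 10 were kept, among 15 lower and 3 higher calls. These fits called many more genes of every kind, 38.3% lower and 35.2% higher without KO1 and 33.1% lower and 30.2% higher without KO2. Other cell types also differed between the E9.5 libraries. The 4 head and arch mesenchyme genes summed to 111 and 112 RPM in KO libraries, against 321 and 385 RPM in WT libraries, with none at 0. Sox10 itself was 39.2 and 79.6 RPM in KO libraries, against 97.7 and 85.3 RPM in WT libraries, and 6 myeloid genes summed to 12.5 and 23.1 RPM in KO libraries, against 1.78 and 1.88 RPM in WT libraries, where 4 of the 6 were at 0. The 5 visceral endoderm genes summed to 41.2 and 105 RPM in KO libraries, against 2.60 and 2.29 RPM in WT libraries, a sum carried by Ttr and Apoa1. Amn was lower in both KO libraries, and Afp and Cubn were at most 0.20 RPM in any library. The part of these cells in the falls was not tested.

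**Figure D5:**
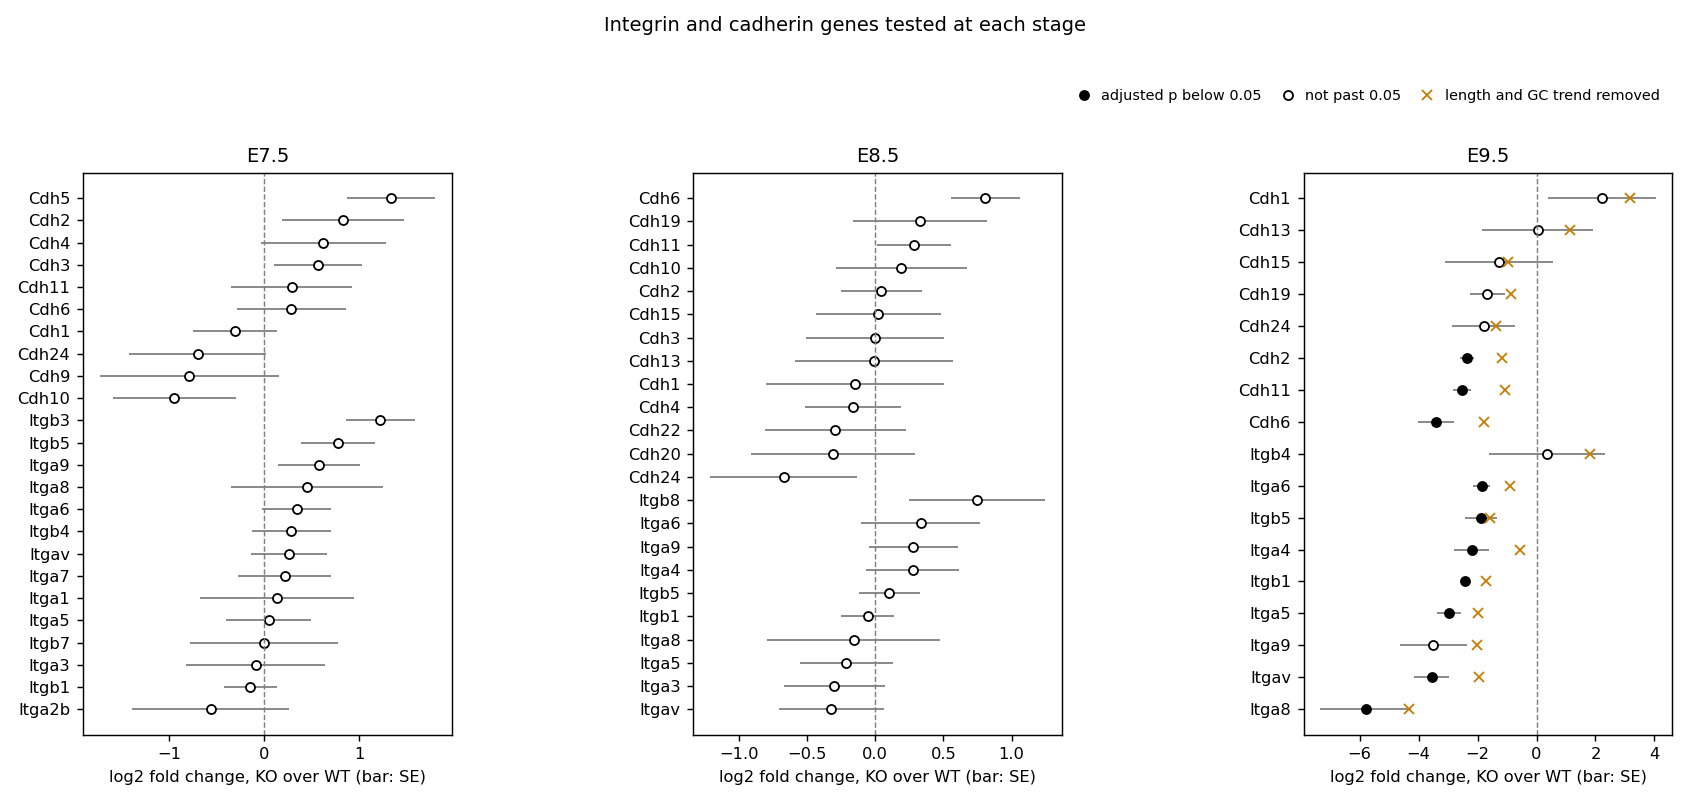
Log2 fold change of KO over WT (log2(value + 1) scale) with its SE for each tested cadherin and integrin, in 3 panels for E7.5 (24 genes), E8.5 (23) and E9.5 (17), each panel with its own x axis. Filled points passed an adjusted limma p of 0.05, which 10 genes did, all at E9.5 and all lower in KO cells, and the crosses give the E9.5 values after the length and GC trend was removed.

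Partner genes were counted from lists of catenins and junction linkers, focal adhesion and integrin activation genes, matrix ligands and transcription factors of epithelial to mesenchymal transition. At E7.5 none of the 10, 20, 16 and 9 genes tested in these lists passed the adjusted threshold, and 1, Twist1, had an unadjusted p below 0.05, against 3.08% of all genes. Twist1, a mesenchymal transcription factor, averaged 49.7 ± 3.37 normalised counts in KO embryos and 17.3 ± 7.54 in WT embryos (n = 2 each). At E8.5 none passed among 10, 18, 17 and 12 genes, and 0, 1, 5 and 3 had an unadjusted p below 0.05, against 6.05% of all genes. The ligand Postn (periostin) averaged 53.4 ± 33.9 in KO cells and 8.28 ± 6.40 in WT cells, without overlap (adjusted p = 0.776 with limma). Zeb1, a repressor of Cdh1 in epithelial cells, averaged 129 ± 43.4 in KO cells and 48.3 ± 15.1 in WT cells, also without overlap (adjusted p = 0.776 with limma). Others were lower in KO cells without overlap. Col1a2 averaged 147 ± 22.7 in KO cells and 253 ± 14.7 in WT cells (adjusted p = 0.777 with limma). The focal adhesion gene Bcar1 averaged 617 ± 106 and 896 ± 115 (adjusted p = 0.807 with limma). Of the 17 matrix ligands, 8 had a log2 fold change above 0 and 9 below.

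At E9.5, 5 of 10 catenins and junction linkers fell and none rose, against 23% and 24.5% of all genes, with a median log2 fold change of -1.39. Ctnnb1 (beta-catenin) averaged 1274 ± 304 normalised counts in KO cells and 5285 ± 326 in WT cells (-2.07, adjusted p = 0.0019 with limma), and Ctnna1 (alpha-catenin) averaged 483 ± 157 in KO cells and 1869.7 ± 211 in WT cells (-1.98, adjusted p = 0.00445 with limma). Of the 18 focal adhesion genes 6 fell and 2 rose, against the same 23% and 24.5%. Flna (filamin) fell by 2.61 and Lims1 by 1.26 on the log2 scale (adjusted p = 0.00741 and adjusted p = 0.00674 with limma), while Ilk (integrin-linked kinase) and Itgb1bp1, a binding partner of the beta1 tail, were higher by 0.90 and 1.87 (adjusted p = 0.00845 and adjusted p = 0.00457 with limma). The median of this list was -0.71, and it was 0.10 once the trend on length and GC was taken out. Matrix ligands had the lowest median, -3.31, with 11 of 17 lower and 1 higher in KO cells. The basement membrane linkers Nid1 and Nid2 and the collagen chain Col1a2 were among them, with log2 fold changes of -4.21, -4.05 and -3.56 (adjusted p = 0.00236, adjusted p = 0.00158 and adjusted p = 0.00192 with limma). Of the 12 transition factors 5 fell and 1 rose: Ets1, Zeb1 and Sox5 were among the lower (-2.31, -3.39 and -1.96), and Twist2 was the higher one (2.18, adjusted p = 0.00869 with limma). After removal of the trend the lower calls were 3 of 10, 1 of 18, 4 of 17 and 3 of 12 in these lists, against 10.7% of all genes.

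The 5 genes outside the families whose levels were most like those of Cdh1 over the 15 libraries, among 8408 genes averaging at least 10 RPM, were Sft2d2, Lad1, Foxh1, Pkp2 and Camsap3, with Pearson correlations of log2(RPM + 1) between 0.969 and 0.983. For Cdh2 they were Ccdc134, Hnrnpr, Sox13, Epha7 and Vezf1, between 0.928 and 0.946. Among the integrins and cadherins, Cdh3 was the most like Cdh1 (0.893), and Itga8 and Cdh6 were the most like Cdh2 (0.793 and 0.731). Cdh1 and Cdh2 had a correlation of -0.01. These correlations describe libraries that share stage, sort and the length dependence given above.

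The authors' deposited table of higher genes at E8.5 lists 2 of the 50 genes, Cdh6 (log2 fold change 0.82, SE 0.28, adjusted p = 0.314) and Cdh8 (1.55, SE 0.79, adjusted p = 0.716), and their E8.5 list of lower genes has none. The authors' deposited table of lower genes at E9.5 lists 11 of the 50: the 10 genes called above and Cdh4 (log2 fold change -6.18, SE 2.54, adjusted p = 0.0447), with Itga8 at -4.49 and an adjusted p of 0.116. Their E9.5 list of higher genes has none. Counting genes of every kind, these lists hold 539 higher and 437 lower at E8.5, and 3548 higher and 3282 lower at E9.5. They include genes whose adjusted p lies above the threshold used here, such as Cdh6 and Cdh8 at E8.5 and Itga8 at E9.5. A place in these lists is thus a looser criterion than the calls made here.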

How the data were processed

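Total RNA from whole E7.5 embryos or sorted cells was turned into cDNA with SMART-Seq v4 and into libraries with Nextera XT, per the labels' protocols, a chemistry that does not mark strand. FastQC 0.11.5, STAR 2.7.0f and mm10 are named, per the submitters' processing notes. Which counter, annotation and normaliser were used is not given in the sources used here. Normalised signal (gene counts divided by 1 factor per library, not coverage) is what the authors deposited, in 1 table per stage. Their lists of selected genes give, per the file headers, a mean normalised signal, a log2 fold change with its standard error, a test score and p-values. The E7.5 list of higher genes was not used, since its means matched the stage table for 0 of 3365 genes. The E8.5 sample titled KO4_5s was not analysed here.

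Dividing each value by what 1 read is worth in its library gave a whole number of reads, within 0.01 read, for 100% of values, and from these reads came depth and RPM (reads in every 1000000). Groups were taken from sample titles. KO and WT were compared within each stage with limma 3.58.1 (trended empirical Bayes, R 4.3.3, two-sided) on log2(deposited value + 1), for genes with a mean of at least 10, with Benjamini-Hochberg adjustment at 0.05. The alternatives edgeR 4.0.16 (quasi-likelihood) and, on the same recovered reads, DESeq2 1.42.0 called 0 and 34 genes at E7.5, 0 and 32 at E8.5, and 5475 and 5865 at E9.5, against 0, 0 and 5700 with limma. Other pseudocounts, filters, scalings, single libraries left out and a fit with trends on transcript length and GC removed (loess, span 0.3) were also tried. Levels per kilobase used the exon union of GENCODE M21. Replicates differed by more than sampling noise (chi-square per gene of 8.67 to 98.4).

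The genes and lists were chosen with earlier results of these data known. Genes named with full values are those past the threshold at a stage, or the 6 with the smallest p where fewer passed, plus Cdh1, Cdh2, Cdh3, Cdh6, Cdh11, Itga4, Itga5, Itga6, Itgav and Itgb1. From each partner list up to 4 with the smallest p were eligible, and likeness was ranked by Pearson correlation. Cdh4, Cdh13, Cdh19, Itga8, Itga9 and Itgb4 were also given values after these were seen.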

Additional observations from a re-analysis of the deposited data

Results flagged for a closer look

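In a scan of 13 sets of 4 libraries, 2 had 1 library far from the others, where chance gives about 1 in 20. Itga9 in E8.5 KO1 had 179 normalised counts, against 92.0 to 102 in the other KO libraries. Itga6 in E8.5 KO4 had 169 normalised counts, against 359 to 375 in the other KO libraries.

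For 3 genes every KO library lay on 1 side of every WT library at 1 stage and on the other side at another stage. KO and WT did not overlap, in either direction, for 28.7% of all genes at E7.5 and 6.54% at E8.5. At E9.5, 41.7% of all genes lay lower in KO without overlap and 38.6% lay higher. How many of all genes changed sides was not counted. The difference between stages was not tested, because the stages are different tissues and their tables were normalised separately. Cdh6 had a log2 fold change of 0.81 at E8.5 and -3.41 at E9.5. Itga9 had 0.58 at E7.5 and -3.50 at E9.5. Itgb5 had 0.78 at E7.5 and -1.90 at E9.5.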

How the results depend on the processing

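None of the integrins and cadherins passed the adjusted limma threshold at E7.5 under any alternative run, and at E8.5 none did except in the fit with a replicate block, where 1 passed (Cdh6, log2 fold change 0.98, adjusted p = 0.0309) among 678 genes of all kinds. Same-numbered KO and WT libraries deviated together in 1 of 3 pairs at E8.5 (correlations of 0.076, -0.025 and 0.554, the last for KO3 and WT3). They did so in none at E7.5 (-0.116) or E9.5 (-0.171). KO4 and WT2, the only E8.5 KO and WT pair with a code number in common (169), had a correlation of 0.410. At E7.5 KO1 has code number 239 in common with WT1 (-0.116) and WT2 (0.116). What libraries with a number in common share was not tested. The replicate block called 0 at E7.5, among 47 genes of all kinds, and 11 at E9.5, among 5722 of 12000. Over all genes at E9.5, the other pseudocounts, filters, scalings and tools called from 4966 of 7696 (minimum mean 100) to 6703 of 12000 (RPM). With no minimum level 4997 of 17137 were called. The E9.5 count of 10 was between 9 and 12 under the other pseudocounts, filters, scalings and tools, though not always of the same genes: with no minimum level 7 of the 10 were kept (Itga4, Itga8 and Itgb5 were lost) and 4 others were added, edgeR lost Itgb5, a pseudocount of 0.1 lost Itga8, and a minimum mean of 100 left Itga4 and Itgav untested. The count was 4 with the length and GC trend removed, and 4 to 18 with 1 library left out. Where leaving out a library left a genotype with 1, that library was assumed to vary like the others. The fits with the trend removed, on RPM, and without KO3 and WT3 were chosen after seeing the data. A fit with KO4_5s could not be run, since no column carries that name.

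The difference in the Cdh2 to Cdh1 ratio ranged from -0.45 to 2.72 at E7.5 and from -0.13 to 0.61 at E8.5 with 1 library left out. TMM scaling moved mean RPM to 18.7 for Cdh2 and 49.2 for Itgb1 in E9.5 KO cells, to 105 and 291 in E9.5 WT cells, and to 270 for Itgb1 in E7.5 KO embryos and 290 in WT embryos. With the longest transcript as length, the Cdh1 share of type I cadherins was 76.8% in E7.5 WT embryos and 12.004% in E8.5 WT cells, in place of 80.1% and 16.7%.

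Signs turned for log2 fold changes that passed no test, and the cause was not tested. At E7.5, within code number 239 (without KO2), these were Cdh1 0.23, Cdh2 -0.21 and Cdh11 -0.75, and Itga5 was -0.055 with quantile scaling, -0.12 with edgeR, -0.12 with DESeq2 and -0.20 with the trend removed. At E8.5 Cdh1 was 0.16 with edgeR, 0.11 with DESeq2, 0.0010 as RPM, 0.29 with the replicate block and 0.039 without KO1 and KO2. Cdh2 was -0.014 with DESeq2 and -0.25 with code numbers 163 and 169 joined as a block apart from the others. Itga6 was -0.24 in that block fit. Cdh3 was 0.022 with a pseudocount of 8, 0.019 with TMM, 0.021 with quantile scaling, 0.32 with edgeR, 0.28 with DESeq2, 0.15 as RPM, 0.26 with the replicate block and 0.22 without KO1 and KO2. Itga4 was -0.068 without KO1 and KO2, and Itgb1 was 0.036 with quantile scaling, 0.10 as RPM and 0.0017 with the replicate block. Leaving out 1 library gave at E7.5 ranges of -0.85 to 0.23 for Cdh1, -0.21 to 1.87 for Cdh2, -0.081 to 1.21 for Cdh3, -0.75 to 1.33 for Cdh11, -0.63 to 0.72 for Itga5 and -0.24 to 0.76 for Itgav. At E8.5 they were -0.71 to 0.37 for Cdh1, -0.23 to 0.37 for Cdh2, -0.41 to 0.31 for Cdh3, -0.49 to 0.0086 for Itga5 and -0.14 to 0.035 for Itgb1. No sign turned for the 10 genes called at E9.5. Groups of 2 libraries, and counts below 3 reads in KO2 for Cdh1, Cdh3, Cdh4 and Itga8, limit what can be said at E9.5.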
